A study of Mus musculus with 11 samples.

Results

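The genes described here are 7 transcription factor genes of embryonic jaw mesenchyme, the T-box genes Tbx2, Tbx3, Tbx15, Tbx18 and Tbx22 and the odd-skipped genes Osr1 and Osr2. They were chosen by name: every probe set whose only gene symbol in the array annotation is one of these 7 was taken, which gave 14 of the 45101 probe sets and 7 of the 18194 named genes on the array. Tbx3 has 5 probe sets, Tbx15, Tbx18 and Osr2 have 2 each, and Tbx2, Tbx22 and Osr1 have 1 each.

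RNA was measured on 11 Affymetrix arrays from mandibular arches of ICR mouse embryos, an outbred stock. The labels name no engineered allele and no treatment in any group. The series compared a medial piece, cut at the distal tip where the lateral swellings of the tongue meet, with a lateral piece that held the rest of the arch. Medial tissue was measured on 1 array at E9.7, 3 at E10.5, 2 at E11.5 and 1 at E14.5, and lateral tissue on 1 array at E9.7 and 3 at E10.5. At E14.5 the label names the tongue, anterior part, and a change between E11.5 and E14.5 cannot be told apart from a change of dissection. RNA came from a pool of 40 embryos per time point, and a test across these arrays therefore measures a spread that may be technical.

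T-box genes encode transcription factors that bind DNA through a shared domain, the T-box. Tbx2 and Tbx3 encode close relatives that act mainly as repressors and respond to BMP signals in several embryonic tissues. Tbx15, Tbx18 and Tbx22 form another branch of the family, and mutations of human TBX22 cause X-linked cleft palate with tongue-tie. Osr1 and Osr2 encode zinc finger proteins related to Drosophila odd-skipped. In mouse, Osr2 is needed for growth of the palatal shelves and limits where teeth form, and Osr1 is known from intermediate mesoderm and from connective tissue progenitors.

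All levels below are log2 signals after quantile normalization, which gives the arrays a common distribution. It was used because the median of the deposited log2 values was far lower on a pair of arrays, replicate 1 of medial E10.5 (2.37) and replicate 1 of medial E11.5 (2.47), than on the other 9 (5.2 to 5.73). Taken as deposited, the median difference over all probe sets tested was -1.05 for medial minus lateral E10.5 and -0.67 for medial E11.5 minus medial E10.5, and after normalization it was -0.01 and -0.02. On these 2 low arrays an 18S rRNA control probe set read 11.8 and 11.4, against 7.51 to 9.32 on the others, and the main differences of the 7 genes are also given without them. The genes of other lists and the markers are given over all arrays alone. A fit without the low arrays keeps 1 array at medial E11.5, which is then assumed to vary like the arrays of the other groups. The arrays fell into 4 groupings by hierarchical clustering of their spiked-in controls, which the labels do not explain. In grouping 1 were the E9.7 arrays, replicate 2 of medial E10.5 and of medial E11.5, and replicate 1 of lateral E10.5. The low arrays formed grouping 2. In grouping 3 were replicate 3 of medial E10.5 with replicates 2 and 3 of lateral E10.5, and the E14.5 array stood alone in grouping 4. All 7 mesenchyme markers with a probe set were at or above 4.86, the median of all values, on every array, so the defining markers of arch mesenchyme were present throughout.

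Tests were made on the 24339 probe sets that reached 4.86 on 2 or more of the 8 arrays in replicated groups. Of the 14 probe sets described here, 9 were tested and 5 were not. The untested ones are 1444594_at of Tbx3, 1422195_s_at of Tbx15, both sets of Tbx18 and 1430950_at of Osr2. The brightest probe set of each gene, by its mean over the arrays, leads the account. A difference was called where the limma adjusted p was under 0.05. Where 1 side had a single array, no test was made, and a difference is said to be past 2-fold where at least 1 array of the comparison reached 4.86 and the arrays of one group all lay 2-fold or more beyond those of the other.

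Promoter windows were at hand for 2 of the 7 genes, Tbx18 and Tbx22. By lead probe set both were past 2-fold higher at E14.5 than at E11.5 in the values that follow, while the other Tbx18 set was lower at E14.5. Each window runs from 250 bases before to 50 bases after the gene start in RefSeq (build GRCm38.p6), and is shown on the strand of the gene, with any match to CCAAT or its reverse complement ATTGG in capitals. The Tbx18 window is chr9:87731211-87731510 on the minus strand, and the one shown for Tbx22, the first of its 3 windows, is chrX:107667714-107668013 on the plus strand.
Tbx18: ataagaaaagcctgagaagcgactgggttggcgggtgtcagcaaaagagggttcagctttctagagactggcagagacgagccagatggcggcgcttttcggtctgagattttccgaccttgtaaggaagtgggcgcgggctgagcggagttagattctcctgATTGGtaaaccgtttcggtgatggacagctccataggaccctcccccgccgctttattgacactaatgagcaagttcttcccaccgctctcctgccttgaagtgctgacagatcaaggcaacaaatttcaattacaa
Tbx22: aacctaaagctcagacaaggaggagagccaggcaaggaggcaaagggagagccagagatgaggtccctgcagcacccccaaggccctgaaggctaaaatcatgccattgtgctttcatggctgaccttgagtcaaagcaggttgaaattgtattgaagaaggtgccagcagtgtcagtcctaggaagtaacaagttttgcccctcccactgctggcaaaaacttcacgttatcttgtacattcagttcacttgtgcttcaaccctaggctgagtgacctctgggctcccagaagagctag
The Tbx18 window held one CCAAT box, as ATTGG from base 164 of the window, and the Tbx22 window shown held none, while another of the 3 Tbx22 windows, chrX:107676262-107676561, held one from base 180. CCAAT was present on either strand in 37.41% of 32851 such windows. Neither window shown held the T-box core GGTGTGA (3.98% of windows), the forkhead core GTAAACA (3.65%), the GLI core TGGGTGGTC (0.25%), the homeodomain core TAATTA (5.29%) or TATAAA (13.62%), on either strand. These letters describe the windows alone. GC content was 51.7% in the Tbx18 window and 50.7% in the Tbx22 window.

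At E10.5 Osr2 was lower in medial than in lateral tissue, while Osr1 was not called. The lead probe set of Osr2, 1426155_a_at, read 3.90, 3.87 and 3.52 on the medial E10.5 arrays, against 6.68, 6.33 and 6.04 on the lateral E10.5 arrays. The groups did not overlap, and every medial array lay below 4.86. Medial minus lateral was -2.59 ± 0.25 (log2 ± SE, 95% interval -3.15 to -2.02, n = 3 arrays each, limma adjusted p = 0.000922), which is 6-fold lower in medial tissue. Since the medial level was near the bottom of the array's range, the fold depends on signals that are low there. Within grouping 1 the difference was -2.81, within grouping 3 it was -2.67, and without the low arrays it was -2.77 (adjusted p = 0.00273). Leaving out each array in turn gave -2.74 to -2.42, with adjusted p from 0.0021 to 0.00824. Osr2 entered the test through its 3 lateral E10.5 arrays and medial E11.5 replicate 2, and would not have passed the filter without the lateral arrays. The fit with no filter also called it, with a limma adjusted p no higher than 0.00824.

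Of the 9 tested probe sets, 2 were called higher and 1 lower in medial tissue at E10.5, where 2.96% of all tested probe sets were called, 1.89% higher and 1.07% lower. The arrays of the groups did not overlap for 3 of the 9, against 21.9% of all tested probe sets. These 3 were the ones called, and the 2 higher sets are both of Tbx3. The lower one is Osr2, which would not have passed the filter without the lateral E10.5 arrays where it is high. Nothing is therefore read from its part in these counts.

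Osr2 also differed between stages. In lateral tissue the E10.5 arrays stood at 6.35 ± 0.32 (mean ± SD, n = 3), against 3.83 on the lateral E9.7 array, a difference of 2.52 that was past 2-fold and was 2.85 within grouping 1. In medial tissue Osr2 read 3.51 on the E9.7 array and 3.76 ± 0.21 at E10.5 (n = 3), and then 4.27 and 5.12 at E11.5 and 5.94 at E14.5. Medial E11.5 arrays lay above all medial E10.5 arrays, but the difference of 0.93 ± 0.28 was not called (adjusted p = 0.122). It was 1.25 within grouping 1 and 0.37 within grouping 2, and it was called without medial E11.5 replicate 1 (adjusted p = 0.0454, with 5.12 as the lone E11.5 value and the spread of the other groups) and with the groupings as a term (adjusted p = 0.0371). By group mean, lateral E10.5 ranked highest, followed by medial E14.5 and medial E11.5, and the 3 lowest groups lay between 3.51 and 3.83. The other Osr2 probe set, 1430950_at, stayed between 2.73 and 3.49 on all 11 arrays.

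Osr1 had its highest level in medial tissue at E11.5. Its only probe set, 1449350_at, read 11.26 and 10.99 on the medial E11.5 arrays, against 8.07, 8.33 and 8.51 on the medial E10.5 arrays. No array of one group came within 2 log2 units of the other. E11.5 minus E10.5 was 2.83 ± 0.16 (log2 ± SE, 95% interval 2.46 to 3.19, n = 2 and 3 arrays, limma adjusted p = 4.59e-05), or 7.09-fold higher at E11.5. The value was 2.66 within grouping 1 and 3.20 within grouping 2, and 2.54 without the low arrays (adjusted p = 0.00165). On the E14.5 array Osr1 read 7.92, which was 3.21 below the mean of the E11.5 arrays and past 2-fold (-3.03 without the low arrays).

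Before that, Osr1 was low in both pieces at E9.7, with 5.2 on the medial and 6.28 on the lateral array. The medial array was lower by 1.08, the only one of 6 probe sets past the filter in that comparison that was past 2-fold; 0.795% of 23154 probe sets were past 2-fold higher there and 0.587% lower. With 1 array a side this difference has no replicate check. At E10.5 Osr1 lay 3.10 higher than at E9.7 in medial tissue (3.13 within grouping 1 and 3.20 without the low array) and 2.04 higher in lateral tissue (2.02 within grouping 1), both past 2-fold. Medial and lateral levels at E10.5 were then 8.30 ± 0.23 and 8.32 ± 0.04 (SD, n = 3 each), and their arrays overlapped. Medial minus lateral was -0.02 ± 0.14 (95% interval -0.34 to 0.31, adjusted p = 0.973), and its sign changed with the scaling. Group means thus ran from medial E11.5 at 11.13 down through lateral E10.5, medial E10.5 and medial E14.5, which lay between 7.92 and 8.32, to lateral E9.7 and medial E9.7.

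**Figure D1:**
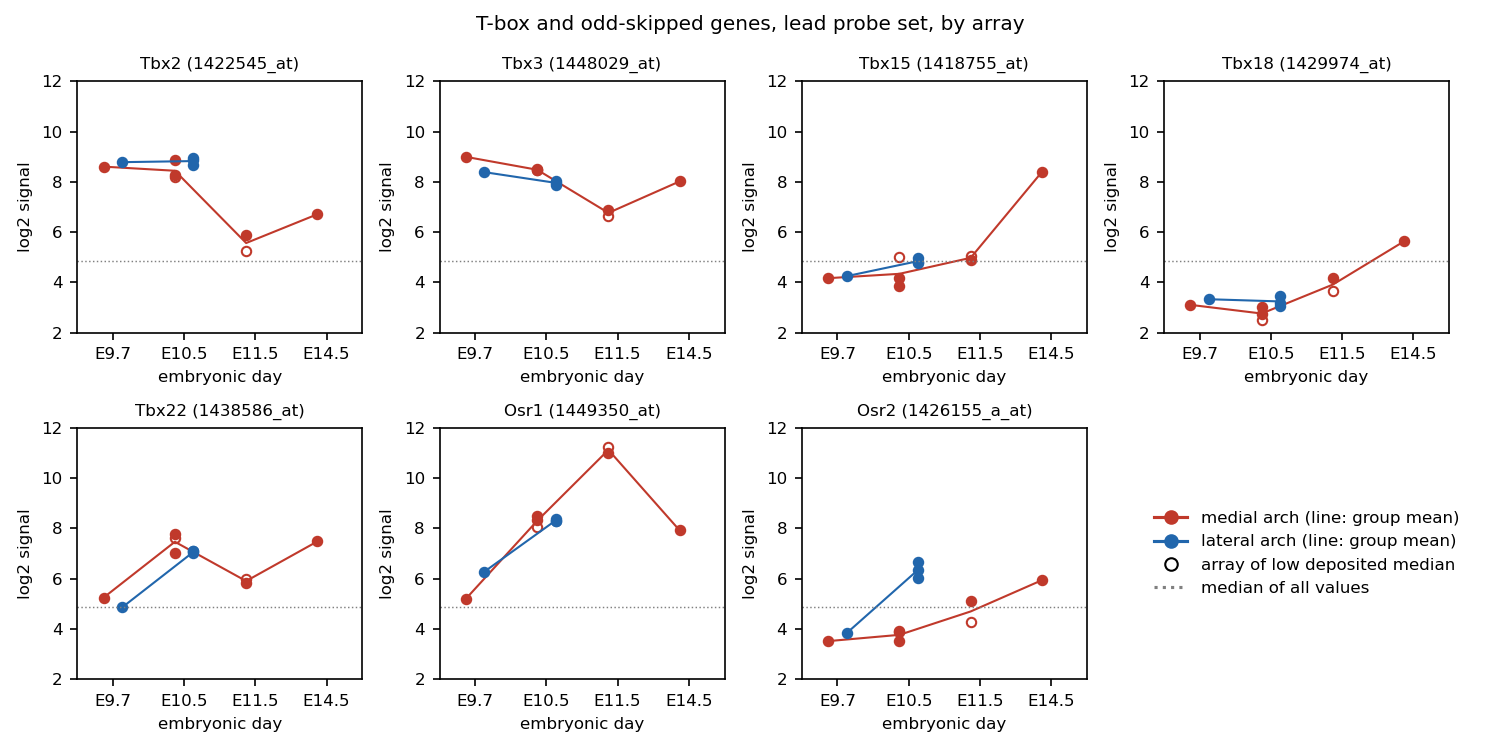
Level of the lead probe set of each gene on each array (quantile-normalized log2 signal, y axis) by embryonic day (x axis, evenly spaced), with medial arrays in red and lateral arrays in blue, lines through the group means, and open points for the 2 arrays of low deposited median. Osr1 peaks on the medial E11.5 arrays at 11.26 and 10.99, Tbx2 is lowest there at 5.23 and 5.90, and the lateral Osr2 arrays at E10.5 lie at 6.04 to 6.68 against 3.52 to 3.90 in medial tissue.

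Tbx2 fell in medial tissue between E10.5 and E11.5. Its probe set 1422545_at read 5.23 and 5.90 on the medial E11.5 arrays, against 8.19, 8.86 and 8.28 on the medial E10.5 arrays, with no overlap. E11.5 minus E10.5 was -2.88 ± 0.25 (95% interval -3.45 to -2.31, n = 2 and 3, limma adjusted p = 0.000344), or 7.35-fold lower at E11.5. The difference was -2.96 within grouping 1 and -2.96 within grouping 2, and -2.63 without the low arrays (adjusted p = 0.00731). The E14.5 array read 6.71, above both E11.5 arrays by less than 2-fold over the nearer one.

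Before E11.5, the Tbx2 arrays of both pieces lay between 8.19 and 8.94. The probe set read 8.61 on the medial and 8.79 on the lateral E9.7 array, and at E10.5 averaged 8.45 ± 0.36 in medial and 8.83 ± 0.14 in lateral tissue (SD, n = 3 each). The E10.5 arrays overlapped, since medial replicate 2 at 8.86 lay above 1 lateral array at 8.67. Medial minus lateral was -0.39 ± 0.22 (95% interval -0.90 to 0.13, adjusted p = 0.518), and -0.26 without the low arrays (adjusted p = 0.565). The means of these 4 groups therefore have no order beyond their spread, and those of medial E14.5 and medial E11.5 come below them.

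Tbx3 fell over the same interval and differed between the pieces at E10.5. Its lead probe set, 1448029_at, read 6.66 and 6.88 on the medial E11.5 arrays, against 8.51, 8.46 and 8.48 on the medial E10.5 arrays. The difference was -1.72 ± 0.13 (95% interval -2.00 to -1.43, adjusted p = 0.000137), or 3.29-fold lower at E11.5. It was -1.58 within grouping 1, -1.86 within grouping 2 and -1.56 without the low arrays (adjusted p = 0.00459). On the E14.5 array the probe set read 8.02, which was 1.25 above the E11.5 mean and past 2-fold.

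Between the pieces at E10.5, 1448029_at read 8.51, 8.46 and 8.48 in medial tissue, against 7.89, 7.96 and 8.04 in lateral tissue. The groups did not overlap, and both were tight, with SDs of 0.028 and 0.076. Medial minus lateral was 0.52 ± 0.11 (95% interval 0.27 to 0.78, adjusted p = 0.0476), a 1.44-fold difference just inside the threshold. Within grouping 1 it was 0.57 and within grouping 3 it was 0.48, and without the low arrays it was 0.50 (adjusted p = 0.0479). Leaving out any 1 of the 6 arrays took the adjusted p to between 0.0962 and 0.21. At E9.7 the medial array read 9.0 against 8.39 on the lateral array, a gap of 0.61 in the same direction without a test. Medial E10.5 was lower than medial E9.7 by 0.51 and lateral E10.5 lower than lateral E9.7 by 0.43, both short of 2-fold.

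The other Tbx3 probe sets repeated this in part. The set 1437479_x_at, whose suffix marks probes that may also match other transcripts, read 8.48, 8.05 and 7.76 in medial tissue at E10.5, against 7.36, 7.11 and 7.18 in lateral tissue. Medial minus lateral was 0.89 ± 0.18 (95% interval 0.47 to 1.30, adjusted p = 0.0388), with 0.70 within grouping 1 and 0.62 within grouping 3. The call was lost on leaving out any array but medial replicate 3 (adjusted p from 0.0219 to 0.182 over the 6 fits), and without the low arrays the adjusted p was at the threshold, 0.05. On arrays centred on their medians neither set was called between the pieces, with 0.68 for 1448029_at (adjusted p = 0.275) and 1.02 for 1437479_x_at (adjusted p = 0.0604). On the values as deposited the sign turned for both sets, to -0.45 for 1448029_at and -0.11 for 1437479_x_at, where the median of all probe sets was -1.05. Between E10.5 and E11.5 this probe set fell by 1.98 ± 0.21 on the log2 scale (adjusted p = 0.00081), as the lead set did, and without the low arrays the difference was -1.66 (adjusted p = 0.01).

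Less bright Tbx3 probe sets were not called in either comparison by the main fit. The set 1445757_at read 5.46 and 5.75 on the medial E11.5 arrays, against 6.20, 7.38 and 7.14 on the medial E10.5 arrays, without overlap. Its difference was -1.30 ± 0.31 (adjusted p = 0.0561), and without medial E10.5 replicate 1 the adjusted p was 0.00153. This fall of 1445757_at was called in 8 of 18 alternatives. At E10.5 its medial minus lateral difference was 0.30 ± 0.28 (adjusted p = 0.696), called in 1 of 19 alternatives. The set 1439567_at lay between 4.25 and 5.25 on all arrays, with differences of 0.39 ± 0.17 between the pieces (adjusted p = 0.378) and -0.61 ± 0.19 from E10.5 to E11.5 (adjusted p = 0.15). The latter was called in 2 of 17 alternatives. At E14.5 the probe sets disagreed in direction: 1448029_at and 1437479_x_at were 1.25 and 1.36 above their E11.5 means, while 1445757_at, at 4.81, was 0.79 below its own. The fifth set, 1444594_at, stayed between 2.71 and 3.32.

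**Figure D2:**
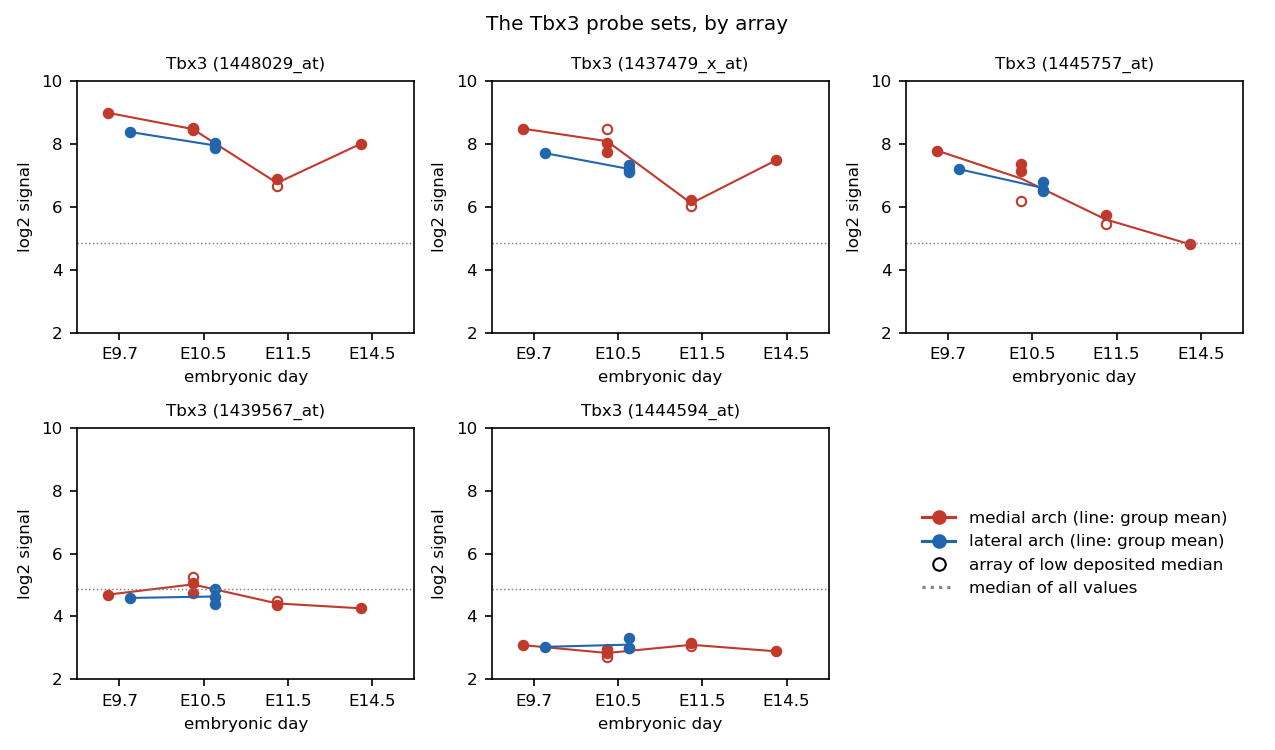
Each of the 5 Tbx3 probe sets on each array (quantile-normalized log2 signal, y axis) by embryonic day (x axis, evenly spaced), with medial arrays in red, lateral arrays in blue, lines through group means and open points for the 2 arrays of low deposited median. The medial E11.5 arrays are the lowest of the medial arrays up to E11.5 for 4 of the 5 sets, and 1444594_at is flat between 2.71 and 3.32.

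Tbx22 was lowest at E9.7, and in medial tissue it fell between E10.5 and E11.5. The probe set 1438586_at read 5.99 and 5.82 on the medial E11.5 arrays, against 7.61, 7.79 and 7.01 on the medial E10.5 arrays. The groups did not overlap, and E11.5 minus E10.5 was -1.56 ± 0.22 (95% interval -2.06 to -1.07, adjusted p = 0.00375), or 2.96-fold lower at E11.5. The value was -1.97 within grouping 1, -1.62 within grouping 2 and -1.57 without the low arrays, where the call was lost (adjusted p = 0.0558). On the E14.5 array Tbx22 read 7.48, which was 1.58 above the E11.5 mean, past 2-fold, and inside the range of the medial E10.5 arrays.

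From E9.7 to E10.5 Tbx22 was past 2-fold higher in both pieces. Medial tissue averaged 7.47 ± 0.41 at E10.5 against 5.25 on the E9.7 array, and lateral tissue 7.06 ± 0.06 against 4.86 (SD, n = 3 at E10.5). The differences were 2.22 and 2.21, and within grouping 1 they were 2.54 and 2.25. Medial and lateral arrays overlapped at E10.5, with a difference of 0.40 ± 0.19 (95% interval -0.04 to 0.84, adjusted p = 0.416), which was 0.68 within grouping 1, -0.04 within grouping 3 and 0.33 without the low arrays (adjusted p = 0.529). At E9.7 the medial array was 0.39 higher than the lateral one. With Osr1, Tbx22 made up the 2 of 8 probe sets past 2-fold higher at E10.5 in medial tissue, against 0.552% of 24640 probe sets. With Osr1 and Osr2 it made up the 3 of 9 past 2-fold higher in lateral tissue, where the share of all was 0.748% of 24346. On the lateral E9.7 array Osr2 was under the filter and Tbx22 just under it (4.856 against 4.862), and both entered that count through the E10.5 arrays where they are high, so nothing is read from it. None of these probe sets was past 2-fold lower in either comparison, against 0.28% and 0.854% of all.

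Tbx15, which in mouse shapes the skeleton and skin pigment, and Tbx18, a gene of pericytes, somites and ureter mesenchyme, were both highest on the E14.5 array by their lead probe sets. The lead Tbx15 set, 1418755_at, read 8.40 on the E14.5 array, against 5.05 and 4.90 on the medial E11.5 arrays. That difference of 3.42, or 10.7-fold, was past 2-fold, and the E14.5 array stood above all the others, which lay between 3.84 and 5.05, with 4 of those 10 at or above 4.86. No test was made of it, since the 1 array at E14.5 gives no spread of its own. At E10.5 Tbx15 read 5.01, 4.18 and 3.84 in medial tissue, against 4.98, 4.80 and 4.76 in lateral tissue, with overlap through medial replicate 1, a low array. Medial minus lateral was -0.50 ± 0.26 (95% interval -1.10 to 0.09, adjusted p = 0.458), with -0.80 within grouping 1 and -0.94 within grouping 3. The difference was called in 4 of 19 alternatives, 1 of them the fit without that array (-0.84, adjusted p = 0.0228). For E11.5 against E10.5 the difference was 0.64 ± 0.29 (limma adjusted p = 0.365), with 0.72 within grouping 1 and 0.05 within grouping 2. It was called without the same array (adjusted p = 0.0147), a fit that keeps the other low array. No other alternative called it. Tbx15 levels at E9.7 were 4.17 in medial and 4.25 in lateral tissue. The other Tbx15 set, 1422195_s_at, lay between 3.03 and 3.75 throughout.

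The lead Tbx18 set, 1429974_at, read 5.64 on the E14.5 array, against 3.64 and 4.18 on the medial E11.5 arrays. The difference of 1.72 was past 2-fold, and the E14.5 array was the only one of the 11 to reach 4.86. At E11.5 both arrays lay above the medial E10.5 arrays, which read 2.52, 3.04 and 2.72. All 5 were under the filter, and the main fit did not test the set. The alternative fit with no filter did include it, and its result for this set is not given here. The other set, 1449871_at, gave another order, with 3.11 at E14.5 against 3.73 and 3.76 at E11.5 and 2.77, 2.98 and 2.62 at medial E10.5. All its values were under 4.86, and the direction of Tbx18 between E11.5 and E14.5 therefore depends on the probe set.

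In medial tissue at E11.5 against E10.5, 1 of the 9 tested probe sets was called higher (Osr1) and 4 lower (Tbx2, both brighter sets of Tbx3, and Tbx22). Of all tested probe sets 4.31% were called, 2.68% higher and 1.62% lower, and 14.9% had an unadjusted p under 0.05. The arrays of the groups did not overlap for 8 of the 9, Tbx15 being the exception, against 25.1% of all. From E11.5 to E14.5, 5 of 9 probe sets were past 2-fold higher (Tbx15, Tbx18, Tbx22 and 2 of Tbx3) and 1 lower (Osr1), where the shares of all were 9.49% and 9.02% of 25405 probe sets. Tbx18 entered that count through the E14.5 array alone, so the higher count is partly set by the filter. Without the low arrays the differences were 3.49 for Tbx15, 1.53 for Tbx18, 1.65 for Tbx22, 1.12 and 1.25 for Tbx3 1448029_at and 1437479_x_at, 0.81 for Tbx2 and 0.84 for Osr2. Tbx2 and Osr2 were 1.15 and 1.24 higher at E14.5 than the E11.5 means but short of 2-fold over the nearer array. The comparisons that meet at medial E10.5 or at medial E11.5 share those arrays.

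**Figure D3:**
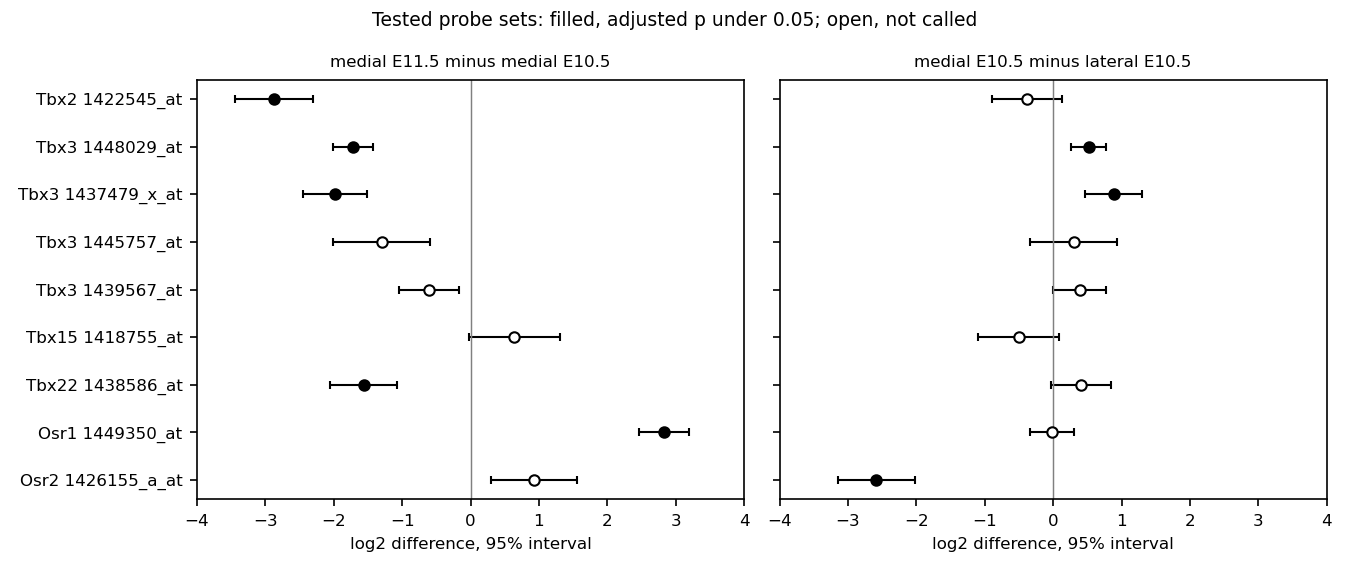
Log2 differences of the 9 tested probe sets (x axis, points with 95% intervals) for medial minus lateral tissue at E10.5 and for medial E11.5 minus medial E10.5, with filled points where the limma adjusted p was under 0.05. Osr2 stands at -2.59 in the comparison of the pieces, and Osr1 at 2.83 and Tbx2 at -2.88 lie at opposite ends of the comparison over time.

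Markers of other cell types moved in the same comparisons, where 2.96% (between the pieces) and 4.31% (E11.5 against E10.5) of all tested probe sets were called. Epithelial markers averaged 7.88 to 7.96 on the medial E10.5 arrays, against 7.11 to 7.28 on the lateral E10.5 arrays, and 6 of 10 were called higher in medial tissue and none lower, while 2 of 7 endothelial markers were called higher. Of 3 tested cartilage and bone markers, 2 were lower in medial tissue, as were 1 of 10 muscle markers and 1 of 4 tested neuron and glia markers. None of the 7 mesenchyme markers was called by limma between the pieces, and 2 had an unadjusted p under 0.05, against 13.5% of all tested probe sets. At E11.5, muscle markers averaged 7.43 to 7.93, against 4.29 to 4.39 at medial E10.5, with 8 of 10 called higher. At or above 4.86 were 10 of 10 at medial E11.5, against 2 to 3 at medial and 3 to 5 at lateral E10.5. Muscle markers could thus pass the filter through the medial E11.5 arrays alone, where they are high, and nothing is read from their count. Epithelial markers averaged 7.20 to 7.34 at E11.5, against 7.88 to 7.96 at medial E10.5, with 6 of 10 lower and 1 higher. Mesenchyme markers averaged 9.58 to 9.7 at E11.5, against 10.1 to 10.2 at medial E10.5, with 3 of 7 lower and 1 higher. Of the endothelial markers 2 of 7 were lower and none higher, and 4 of 6 tested macrophage markers were higher. At E14.5, against the E11.5 arrays, 7 of 10 muscle, 7 of 10 epithelial, 5 of 7 macrophage and 4 of 6 neuron and glia markers were past 2-fold higher, and 4 of 5 red cell markers past 2-fold lower. The shares of all probe sets there were 9.49% higher and 9.02% lower. At E11.5, 4 to 5 of 7 macrophage and 3 to 4 of 6 neuron and glia markers reached 4.86, against 7 and 6 at E14.5. Some may have entered through the E14.5 array alone, so both of these counts may be partly set by the filter. Muscle markers averaged 11 at E14.5 against 7.43 to 7.93 at E11.5, and epithelial markers 9.26 against 7.20 to 7.34. Macrophage markers averaged 6.96 at E14.5 against 5.76 to 5.83 at E11.5, and red cell markers 7.02 against 9.46 to 9.64. In such bulk samples fewer cells of a type and less RNA per cell cannot be told apart, and the part of these cell types in the results for the T-box and odd-skipped genes was not tested.

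**Figure D4:**
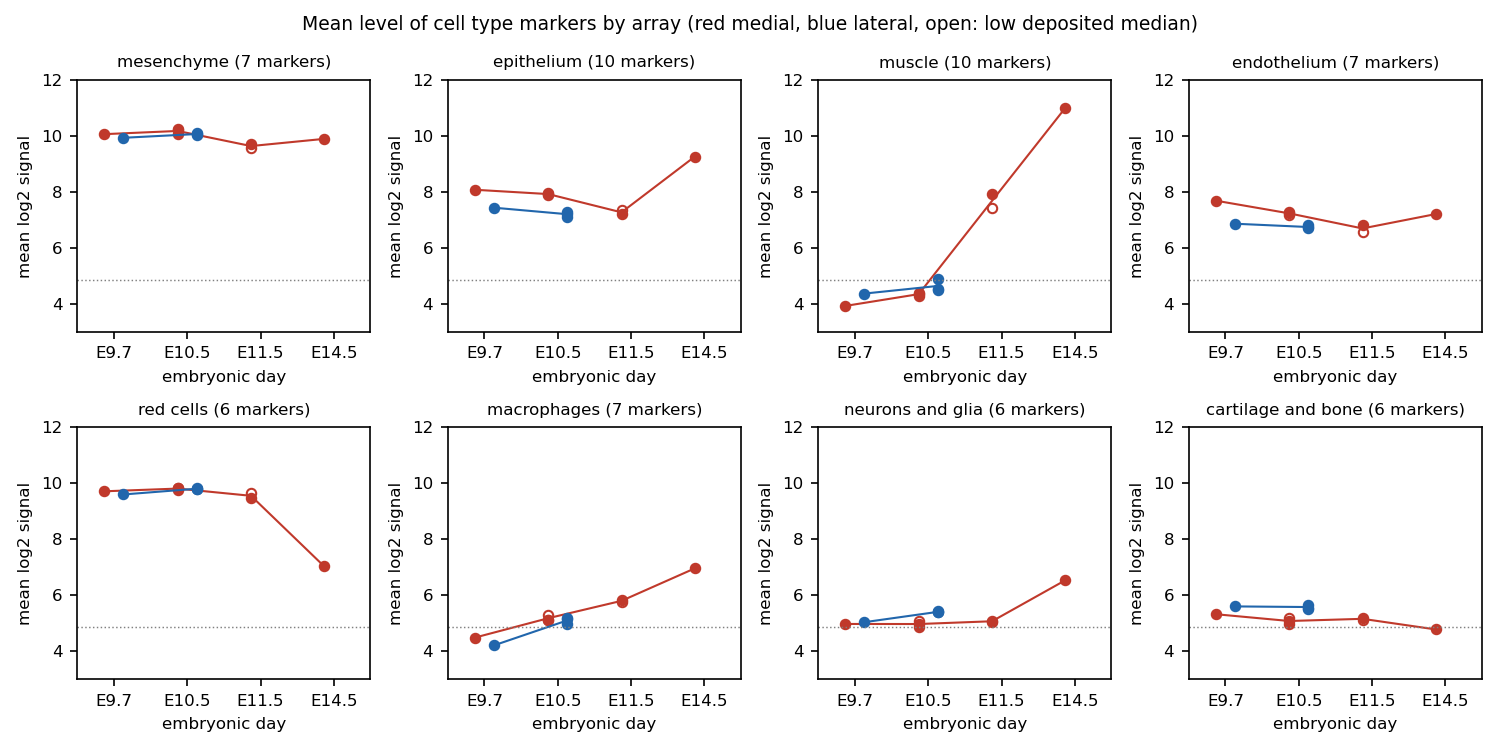
Mean quantile-normalized log2 signal of the markers of each cell type (y axis) by embryonic day (x axis, evenly spaced), 1 point per array, with medial arrays in red, lateral arrays in blue and open points for the 2 arrays of low deposited median. Muscle markers stand at 7.43 to 7.93 on the medial E11.5 arrays against 4.29 to 4.39 on the medial E10.5 arrays, and mesenchyme markers stay between 9.58 and 10.2 on all arrays.

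Genes that act upstream of these factors or beside them differed between the pieces in both directions. Of 19 such genes tested, 6 were higher and 2 lower in medial tissue at E10.5, where 2.96% of all tested probe sets were called, with a median difference of 0.50 against -0.01 over all probe sets. Among the 4 with the smallest adjusted p, the forkhead gene Foxf2 was higher by 2.06 ± 0.18 (adjusted p = 0.000711) and Shh, the hedgehog ligand, by 1.62 ± 0.15 (adjusted p = 0.000713). Bmp4, a BMP ligand, was higher by 1.96 ± 0.18 (adjusted p = 0.000797), and Hand2, a factor of the distal arch, by 1.45 ± 0.16 (adjusted p = 0.00205). The 2 lower genes were Meox2 (difference -2.06 ± 0.37, limma adjusted p = 0.0198) and Fgf8 (-1.93 ± 0.35, adjusted p = 0.0206). Their medial means of 3.07 and 4.43 lay under 4.86. At E11.5 against E10.5, 2 of the 19 were higher and 2 lower, with a median of 0.16. Msx1, a homeobox gene induced by BMP signals, fell by 3.47 ± 0.19 (adjusted p = 4.15e-05) and Hand2 by 0.80 ± 0.18 (adjusted p = 0.0432). Meox2, a homeobox gene of muscle precursors and palate, rose by 4.28 ± 0.42 (adjusted p = 0.000593) and the BMP ligand gene Bmp2 by 1.14 ± 0.22 (adjusted p = 0.0225).

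Genes reported elsewhere as targets of T-box repressors or of odd-skipped factors had 3 calls in each replicated comparison, where 2.96% (between the pieces) and 4.31% (between the stages) of all tested probe sets were called. Of 11 tested, 1 was higher and 2 lower in medial tissue at E10.5. Sema3a, an axon guidance ligand, was higher by 1.08 ± 0.11 (adjusted p = 0.0014), and the cartilage genes Sox9 and Col2a1 differed by -1.98 ± 0.33 (adjusted p = 0.0144) and -0.98 ± 0.20 (adjusted p = 0.0316). Sox9 and Col2a1 are also the cartilage and bone markers called above, so these are the same calls. At E11.5, 2 were higher than at medial E10.5 and 1 lower. Cdkn1a, the cell cycle inhibitor p21 that TBX2 and TBX3 can repress, was higher at E11.5 by 1.08 ± 0.20 (adjusted p = 0.016), and Sfrp2, a Wnt antagonist, by 0.97 ± 0.18 (adjusted p = 0.019). Dkk2, a secreted regulator of Wnt signals, fell by 2.15 ± 0.22 (adjusted p = 0.000769).

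Mesenchyme and connective tissue genes that were listed with the odd-skipped genes were also called in both directions, against the same shares of 2.96% and 4.31% of all. Of 11 tested, 3 were higher and 1 lower in medial tissue at E10.5, with a median of 0.22. Lum and Dcn, small matrix proteoglycans, were higher by 1.95 ± 0.21 (adjusted p = 0.0016) and 1.86 ± 0.23 (adjusted p = 0.0028), and the matrix gene Postn by 1.52 ± 0.17 (adjusted p = 0.00213). The 1 lower gene was Tcf4 (difference -0.76 ± 0.16, limma adjusted p = 0.0433). It is a basic helix-loop-helix gene and is not taken here as a partner of the odd-skipped genes. From E10.5 to E11.5, 3 of the 11 were higher and 3 lower, with a median of 0.53. The paired homeobox genes Prrx2 and Prrx1 fell by 1.81 ± 0.13 (adjusted p = 0.000109) and 2.13 ± 0.19 (adjusted p = 0.000344), and Lum fell by 2.01 ± 0.23 (adjusted p = 0.00129). Prrx1, Prrx2, Pdgfra and Col3a1 of this list are also among the mesenchyme markers above, so calls of these genes count in both. Postn was higher at E11.5 by 2.01 ± 0.19 (adjusted p = 0.000543).

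Among other T-box genes, 10 had a named probe set and 3 passed the filter, Tbx1, Tbx4 and Mga. By limma none was called between the pieces at E10.5, where 2.96% of all tested probe sets were. Of the 3, 1 had an unadjusted p under 0.05, against 13.5% of all. Tbx1, a pharyngeal T-box gene, was called from E10.5 to E11.5, with 8.62 at E11.5 against 6.40 at medial E10.5, a difference of 2.22 ± 0.18 (adjusted p = 0.000221). Tbx4 and Tbx5 lie next to Tbx2 and Tbx3 in the genome. Tbx4 did not pass 5.41 on any array, and Tbx5 did not pass 4.68. Of the corepressor genes, which encode Groucho and histone deacetylase partners of such factors, 7 were tested. None was called by limma in either replicated comparison, where 2.96% (between the pieces) and 4.31% (between the stages) of all tested probe sets were. An unadjusted p under 0.05 was found for 2 of the 7 between the pieces (13.5% of all tested probe sets) and for 3 of the 7 between the stages (14.9%).

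Over the 11 arrays, other genes followed the lead probe sets closely. The measure was Pearson's r of log2 levels among 6198 genes whose level spanned at least 1 log2 unit. The arrays share stage, dissection and control-probe grouping, and r is given as a description. The 3 genes most like Osr1 were Asxl3 (r = 0.974), Tmem8b (0.945) and Nefm (0.935), and those most like Osr2 were Shox2 (0.919), Arg2 (0.915) and Gjb6 (0.909). For Tbx2 they were Ap1s3 (0.956), Lrba (0.952) and Irx3 (0.946), and for Tbx3 they were Stard8 (0.970), Spint1 (0.970) and Nuak1 (0.961). Tbx22 had no gene above 0.910 and was followed by Plaat3 (0.910), Fbln2 (0.896) and Slc39a3 (0.896). For Tbx15, Cntn3 (0.991), Negr1 (0.988) and Fam120c (0.978) came first, and for Tbx18 Gamt (0.981), Kif1b (0.973) and Pdzd2 (0.973). Tbx15 and Tbx18 were highest on the single E14.5 array, a point that the values of both share. Between the genes themselves, r was 0.807 for Tbx2 with Tbx3 and 0.866 for Tbx15 with Tbx18, and -0.897 for Tbx3 with Osr1.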

How the data were processed

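Total RNA of 3 ug per sample was labelled with biotin and hybridised, per the labels' protocols. The deposited log2 values were made by the authors with Affymetrix Expression Console 1.1, per the submitters' processing notes. The algorithm is not given in the sources used here, and the log2 base was inferred from the range of the values (0.0887 to 14.5). Array number limits the precision.

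Values were quantile-normalized over 11 arrays. Probe sets were named from the platform annotation: 34958 had 1 symbol, 932 several and 9211 none, and 34754 matched RefSeq names (GRCm38.p6) by Entrez ID. limma 3.58.1 in R 4.3.3 fitted 1 mean for each of 6 groups (5 residual degrees of freedom), with Benjamini-Hochberg adjustment over the 24339 tested probe sets. The fit was tested on simulated data. Alternatives covered scaling, filter, probe set summary, variance model, array weights, replicate block, control-probe groupings, thresholds and leaving out arrays. Values of E10.5 against E9.7 within grouping 1 were added after the data were seen.

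The genes, lists and alternatives were chosen with earlier results of these data known. Named from each list were up to 4 genes per tested comparison with the smallest adjusted p, and for each gene the 3 others with the highest correlation. Meox2 and Fgf8 between the pieces were named beyond that rule.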

Additional observations from a re-analysis of the deposited data

How the results depend on the processing

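The number of probe sets called, out of 9 tested, moved with several choices. Between the pieces at E10.5 (medial minus lateral, 2 higher and 1 lower), the higher count was 0 on the values as deposited, on centred arrays, with no filter, with the mean of a gene's probe sets and at adjusted p under 0.01. It was 1 with 1 probe set per gene, with only the compared groups in the fit and with a replicate block, and 4 with array weights. The lower count was 0 on deposited values and with the mean of probe sets (where Osr2 fell under the filter). It was 2 (Osr2 and Tbx15) without the low arrays, with array weights and with the groupings as a term. Leaving out each array gave 0 to 1 higher and 1 to 2 lower. From E10.5 to E11.5 (1 higher and 4 lower), deposited values gave 0 and 0. No filter, with all 14 sets in the test, gave 3 higher, the groupings as a term 2 higher, and leaving out each array 1 to 2 higher. Untested counts moved at 1.5-fold (3 higher in medial tissue at E9.7 in place of 0, and at E14.5 7 higher in place of 5 and 2 lower in place of 1), on deposited values (0 higher at E10.5 in medial tissue in place of 2, and 0 lower at E14.5), and with the mean of probe sets (2 higher at E14.5 in place of 5). Of the tested comparisons, signs turned between the pieces at E10.5 and not from E10.5 to E11.5. Among untested differences short of 2-fold, Tbx2 at E10.5 against E9.7 turned in both pieces (to 0.25 in medial and to between -0.43 and -0.01 in lateral tissue), Tbx3 1439567_at turned to -0.45 at E10.5 in medial tissue, and 1445757_at to 0.61 at E14.5. Between the pieces, on deposited values they were -0.11 for Tbx3 1437479_x_at, -0.45 for 1448029_at, -0.78 for 1445757_at, -0.76 for 1439567_at and -0.60 for Tbx22. Osr1 was 0.13 on centred arrays, 0.10 without the low arrays, 0.0043 with array weights and 0.052 with the groupings as a term, and it ran from -0.12 to 0.10 on leaving out each array, with 0.0088 without lateral replicate 2. The cause was not tested. Over all probe sets, calls were 461 higher and 260 lower between the pieces and 0 and 2 on deposited values. From E10.5 to E11.5 they were 653 and 395, against 416 and 232 on centred arrays, 424 and 294 without the low arrays, and 0 and 0 in limma on deposited values, where 75 had an unadjusted p under 0.05. Equal replicate numbers did not pair the arrays between the pieces at E10.5, since their deviations correlated at 0.126, -0.251 and 0.466. Between the stages the 2 shared numbers correlated at 0.594 and 0.434. With 2 arrays at medial E11.5 the deviations of one mirror those of the other, so these are not separate checks. Arrays of shared number there also lay in the same control-probe grouping, and 2 pairs were too few to settle a pairing. With the replicate block Tbx3 1448029_at was not called between the pieces (adjusted p = 0.0588), and from E10.5 to E11.5 Tbx3 1439567_at (0.0409) and 1445757_at (0.0451) were.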
